A study of Mus musculus with 15 samples.

Results

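FXRα4 was compared with FXRα2, the pair of FXR isoforms that lack the short insert beside the DNA-binding domain and differ at the N-terminus, where FXRα4 is longer. The comparison used the 3 arrays titled FXRα4 and the 3 titled FXRα2, 6 of the 15 arrays in the series, and 1 probe set for each of 18820 genes. All arrays held total RNA of primary hepatocytes from male C57BL/6J mice, purified over a Percoll gradient then plated on collagen. The FXRα2 and FXRα4 groups received an adenovirus that carried the human form of the named isoform and, from a separate CMV promoter, GFP, and the GFP group received an adenovirus with GFP alone. The remaining groups, FXRα1 and FXRα3, received the isoforms with the insert in the same way. RNA was taken at 36 h, after a last day in medium without dexamethasone and insulin. The age of the mice, the promoter in front of the receptor and the amount of receptor protein are not stated in the labels. Whether the arrays of a group came from different mice or dishes is not said in the labels, and the p-values therefore cover just the spread among these samples, which could be technical.

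FXR, the product of Nr1h4, is a nuclear receptor that bile acids bind and activate in hepatocytes. With its partner RXR it binds pairs of hexamer half-sites in DNA, classically an inverted repeat with a single spacer base, and it is known for raising bile salt export and for holding back bile acid synthesis. Alternative promoters give its isoforms a short or a long N-terminus, and alternative splicing adds or omits a short insert (MYTG) that lies next to the DNA-binding domain.

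Each array was summarised by the authors as a log2 value per probe set, and differences below are differences of log2 values ± SE from limma with 3 arrays per group. The median over genes lay between 5.79 and 5.91 in the FXRα2 and FXRα4 arrays. Within a group, r between arrays was 0.9971 to 0.9985 across genes, which are not independent replicates, and FXRα2 with FXRα4 arrays with r from 0.9921 to 0.9940. The number of arrays, 3 per group, limits the precision. The Nr1h4 probe set is annotated to the mouse gene, and the level of the human transgene was not analysed here. It gave 7.16, 7.11 and 7.04 with FXRα2 and 7.39, 7.42 and 7.33 with FXRα4, against 6.94, 6.94 and 7.03 with GFP. The FXRα4 arrays were all above the FXRα2 arrays, by 0.27 ± 0.07 (adjusted p = 0.00894).

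FXRα4 and FXRα2 arrays differed over a large part of the measured genes, mostly by small amounts. Of the mitosis and cytokinesis list 22 of 26 measured members rose with FXRα4 and 0 fell, against 11.7% and 12% of all genes, and of the DNA replication list 16 of 27 rose and 1 fell. In the lists of fatty acid oxidation, fatty acid synthesis and amino acid catabolism 18 of 32, 15 of 26 and 20 of 37 members fell, and 1 or 2 of each rose. Of 28 FXR targets 14 fell, 1 rose and 13 did not pass. At a Benjamini-Hochberg adjusted p under 0.05, 4456 of 18820 genes differed, or 23.7%, and these are said to have risen or fallen with FXRα4. Of these, 2205 rose (11.7%) and 2251 fell (12%), and 75 rose and 127 fell by at least 2-fold (1.07% together). The median difference over all genes was 0.02. With only the 9410 genes above the median level tested, 4070 passed, 1955 higher and 2115 lower. Bright genes thus passed more often, so the shares of all genes are a low reference for lists of mostly bright genes. The replicates of the groups did not overlap for 6328 genes, or 33.6%. The plot of difference against level shows the genes that passed.

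**Figure D1:**
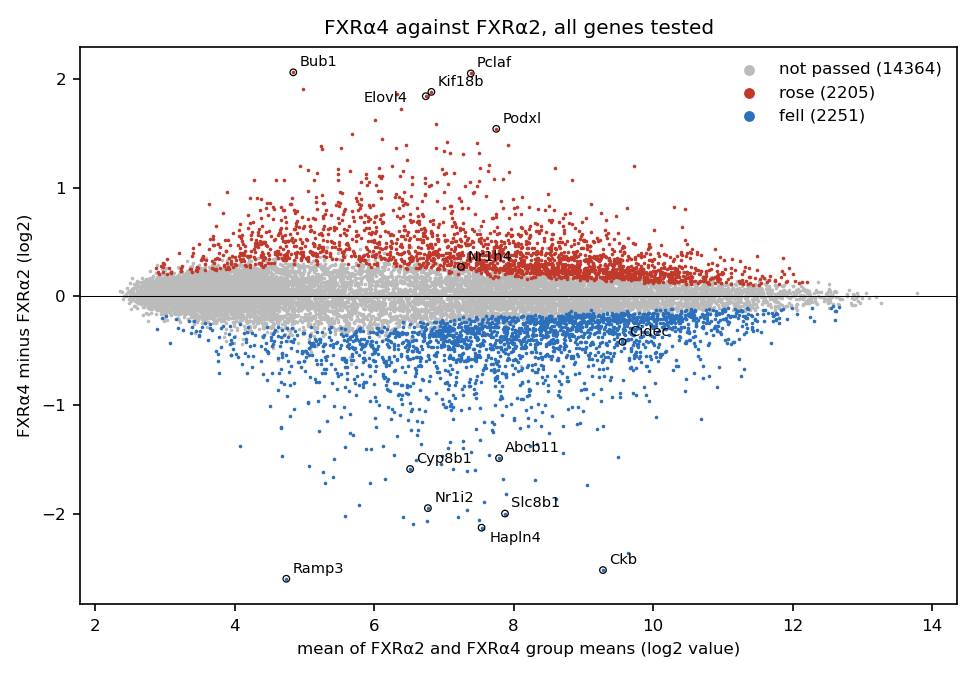
Difference between FXRα4 and FXRα2 (log2, vertical axis) against the mean of both group means (log2, horizontal axis) for 18820 genes. Red points are the 2205 genes that rose and blue points the 2251 that fell at an adjusted p under 0.05, and circles mark named genes. The largest difference was a fall, that of Ramp3 at −2.60.

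The genes that rose most were Bub1, Pclaf, Ncapg, Kif18b, Cep55, Elovl4, Sgo2a, Adcy2, Aurkb, Podxl, Dlgap5 and Fam111a, by 1.45 to 2.06 on the log2 scale. Bub1, a kinase of the spindle checkpoint, read 3.56, 3.63 and 4.25 with FXRα2 and 5.36, 5.78 and 6.47 with FXRα4. The GFP arrays, at 3.39 to 3.47, lay below all of both groups, and the FXRα2 arrays below all FXRα4 arrays. The difference was 2.06 ± 0.20 (adjusted p = 1e-07), a 4.16-fold rise. Pclaf, a factor bound to the replication clamp PCNA, read 6.18, 6.27 and 6.63 with FXRα2 and 8.32, 8.23 and 8.68 with FXRα4. Its difference was 2.05 ± 0.14 (adjusted p = 3.51e-10), and a further probe set gave 2.03. Ncapg, a condensin subunit, read 3.85, 4.03 and 4.21 with FXRα2, which overlapped the 4.03 to 4.23 of GFP, and 5.64, 5.79 and 6.38 with FXRα4. Its rise was 1.91 ± 0.16 (adjusted p = 1.07e-08). Kif18b, a mitotic kinesin, rose by 1.88 ± 0.13 (adjusted p = 8.04e-10), but its dimmer second probe set, with a mean log2 value of 3.30, gave 0.17 and did not pass (adjusted p = 0.229). Elovl4, an elongase of very long fatty acids, read 5.72, 5.78 and 5.96 with FXRα2 and 7.63, 7.70 and 7.65 with FXRα4, 1.84 ± 0.12 higher (adjusted p = 1.33e-10). Adcy2, an adenylate cyclase, rose by 1.62 ± 0.14 (adjusted p = 1.53e-08). Podxl, a sialomucin of the cell surface, read 6.94, 6.87 and 7.11 with FXRα2 and 8.34, 8.48 and 8.73 with FXRα4, 1.54 ± 0.10 higher (adjusted p = 3.6e-10). The GFP arrays read 7.27, 7.04 and 7.19 for Podxl, near those of FXRα2. Fam111a had the opposite placing: its GFP arrays read 7.18, 6.88 and 7.17, near the 6.62, 6.76 and 7.11 of FXRα4 and above the 5.37, 5.20 and 5.56 of FXRα2.

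The mitosis and cytokinesis list held the clearest group difference. Of its 26 measured members 22 rose and 0 fell, and the list's median difference was 0.93. With 1 array left out, 19 to 24 of the members rose. Relative to the GFP mean, the list's median was 0.29, 0.26 and 0.85 in the FXRα2 arrays and 1.52, 1.57 and 1.97 in the FXRα4 arrays. Every FXRα4 array was above every FXRα2 array, and replicate 3 was the highest of both groups. Cdk1, the kinase that drives entry into mitosis, read 7.22, 7.24 and 7.47 with FXRα2 and 8.34, 8.32 and 8.51 with FXRα4, 1.08 ± 0.08 higher (adjusted p = 1.49e-09). The GFP arrays, at 7.48, 7.39 and 7.53, sat beside those of FXRα2. Aurkb, a kinase of the chromosomal passenger complex, read 6.02, 5.88 and 6.38 with FXRα2 and 7.46, 7.45 and 8.11 with FXRα4. Its rise was 1.58 ± 0.16 (adjusted p = 1.33e-07), and Birc5, the survivin subunit of the same complex, rose by 1.13 ± 0.12 (adjusted p = 3.01e-07). Ect2, an exchange factor of cytokinesis, rose by 1.42 ± 0.15 (adjusted p = 2.1e-07). Cenpf, a kinetochore protein, read 4.04, 4.04 and 4.02 with FXRα2 and 4.80, 4.78 and 5.10 with FXRα4, 0.86 ± 0.10 higher (adjusted p = 7.91e-07). The members that did not pass were Ccnb2 (0.33), Plk1 (0.33), Anln (0.27) and Cdc25b (0.04), named here after their values were seen.

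**Figure D2:**
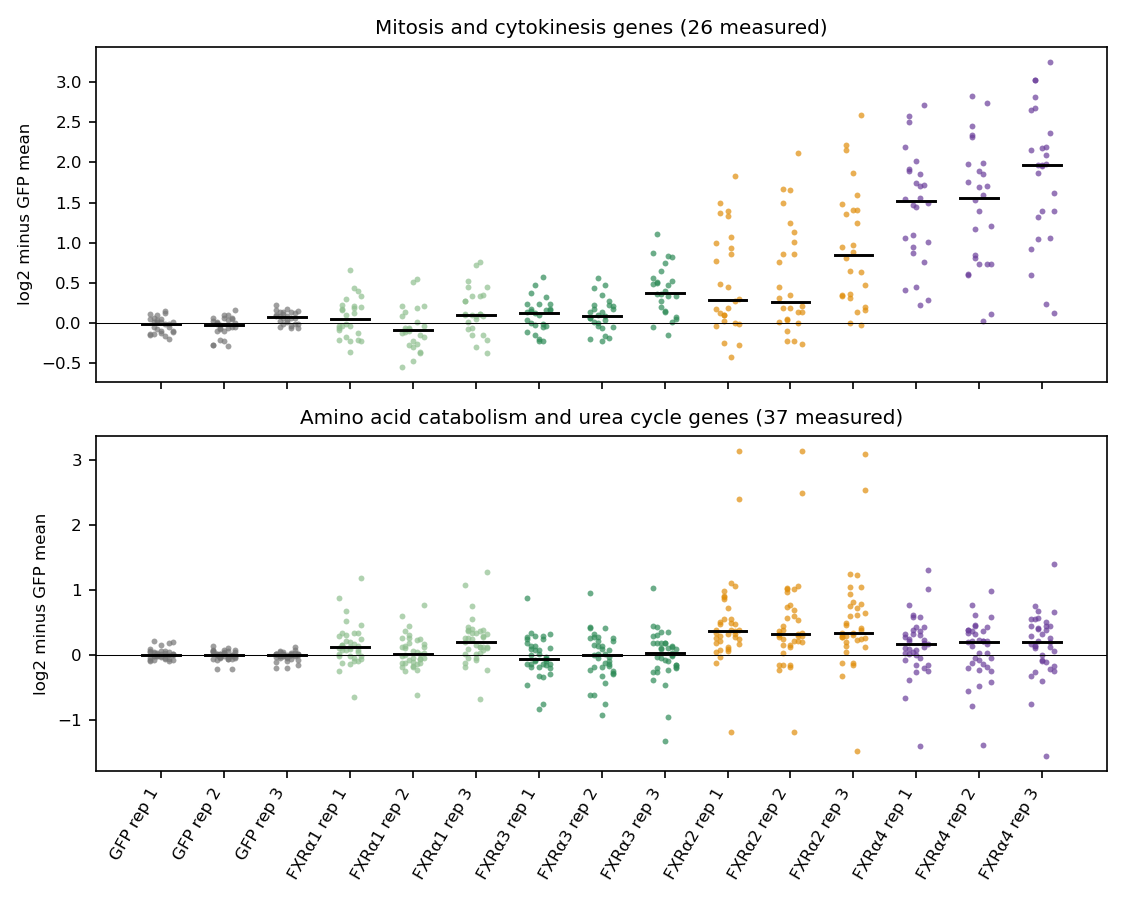
Each member's log2 value minus its GFP mean (vertical axis) in each of the 15 arrays (horizontal axis), for the 26 mitosis and cytokinesis genes (upper) and the 37 amino acid catabolism and urea cycle genes (lower). Points are genes and bars are medians. In the upper panel the medians of the FXRα4 arrays were 1.52 to 1.97 and those of the FXRα2 arrays 0.26 to 0.85. In the lower panel they were 0.17 to 0.20 and 0.32 to 0.36.

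Promoters of mitotic genes often carry a cell cycle homology region (CHR) near the start site and CCAAT boxes upstream of it, so the RefSeq promoter windows (GRCm38.p6, 250 bases before to 50 after each annotated start) were searched on both strands for TTTGAA or TTCGAA (CHR) and for CCAAT. The windows of Bub1, Cdk1 and Cenpf are shown as examples, from the mitotic members with the smallest adjusted p that had both motifs. Ect2, with a smaller adjusted p than Cenpf and both motifs in its 2 windows, is not shown. Each runs from 250 bases before to 30 bases after the start, on the minus strand, and capitals mark both motifs in either orientation (ATTGG is CCAAT on the other strand). They lie at chr2:127831830-127832109 (Bub1), chr10:69352883-69353162 (Cdk1) and chr1:189688057-189688336 (Cenpf).
Bub1: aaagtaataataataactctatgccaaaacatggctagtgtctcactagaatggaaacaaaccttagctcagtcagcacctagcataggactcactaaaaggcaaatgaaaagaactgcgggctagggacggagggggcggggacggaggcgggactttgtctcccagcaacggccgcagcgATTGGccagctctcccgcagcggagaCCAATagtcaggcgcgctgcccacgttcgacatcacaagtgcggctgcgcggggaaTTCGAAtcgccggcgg
Cdk1: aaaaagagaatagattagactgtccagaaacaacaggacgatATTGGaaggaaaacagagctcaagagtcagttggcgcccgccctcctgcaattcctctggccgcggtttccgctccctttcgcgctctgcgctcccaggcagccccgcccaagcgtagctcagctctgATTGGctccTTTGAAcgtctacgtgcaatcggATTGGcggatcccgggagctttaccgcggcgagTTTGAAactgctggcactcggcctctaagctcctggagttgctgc
Cenpf: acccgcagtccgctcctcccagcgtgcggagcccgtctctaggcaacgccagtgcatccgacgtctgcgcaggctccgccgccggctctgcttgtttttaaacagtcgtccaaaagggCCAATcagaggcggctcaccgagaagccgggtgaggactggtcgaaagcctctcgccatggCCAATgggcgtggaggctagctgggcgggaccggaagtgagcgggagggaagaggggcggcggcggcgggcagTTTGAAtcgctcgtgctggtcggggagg

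Counted from the start (1 is its first base, −1 the base before it), the CHR letters began at 15 in Bub1, at −71 and −15 in Cdk1 and at 3 in Cenpf. Of 26 mitotic genes 22 had a window, and 21 of their 24 windows (87.5%) held a CHR, against 16.4% of the 18155 windows of all genes tested. The windows of Ccnb2, Plk1, Anln and Cdc25b, which did not pass, each held a CHR. Those of Birc5, Cenpe and Nuf2, which rose, held none. CCAAT was in 79.2% of the mitotic windows and in 37.5% of all windows. Among genes that rose by at least 2-fold, mitotic genes such as Bub1 and Cdk1 included, 38.8% of 67 windows held a CHR. Over all 2205 genes that rose the share was 15.8% of windows, near that of all genes tested. Of windows of genes that fell, 11.8% of 136 held a CHR at 2-fold or more, and 11.6% over all that fell. A match is a run of letters, and its use in these cells was not tested.

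Of 27 measured members of the DNA replication and nucleotide supply list 16 rose, 1 fell and 10 did not pass, and the median difference was 0.29. Rrm2, the regulated subunit of ribonucleotide reductase, read 8.98, 8.97 and 9.40 with FXRα2 and 10.28, 10.12 and 10.55 with FXRα4. GFP arrays read 7.41, 7.41 and 7.52, so the groups were ordered without overlap, and the rise from FXRα2 to FXRα4 was 1.20 ± 0.14 (adjusted p = 7.89e-07). Cdc6, which loads the replicative helicase, rose by 1.18 ± 0.14 (adjusted p = 1.19e-06) and Mcm10 by 1.05 ± 0.15 (adjusted p = 1.56e-05). Orc6 and Mcm6, parts of the origin complex and of the helicase, rose by 0.43 and 0.26. The member that fell was Cdt1, the partner of Cdc6 in licensing, at 8.26, 8.17 and 8.52 with FXRα2 and 7.70, 7.65 and 7.83 with FXRα4 (−0.58 ± 0.08, adjusted p = 4.9e-06).

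Of 27 G1 cyclins, CDK inhibitors and RB family genes 10 rose and 3 fell, with a median of 0.18. Without FXRα2 replicate 2 the number that rose was 6. Rb1, the retinoblastoma protein, read 8.50, 8.56 and 8.62 with FXRα2 and 9.01, 9.33 and 9.25 with FXRα4 (0.63 ± 0.07, adjusted p = 5.53e-07). E2f5 rose by 0.50, Ccnd3 by 0.34 and Cdk2 by 0.24. E2f3 rose by 0.48, while its second probe set gave 0.13 and did not pass. Cdkn1a, the p21 inhibitor and a p53 target, was among the brightest genes, at 11.92 to 11.95 with FXRα2 and 11.57 to 11.75 with FXRα4, and fell by 0.25 (adjusted p = 5.69e-05). In the p53 response list 8 of 21 members rose and 2 fell, with a median of 0.07. Fas, a death receptor, read 7.22 ± 0.21 with FXRα2 and 8.61 ± 0.13 with FXRα4 (mean ± SD, n = 3; 1.39 ± 0.11, adjusted p = 2.48e-09). Eda2r and Tnfrsf10b, members of the same receptor family, rose by 0.48 and 0.40, and Pmaip1, the BH3-only protein NOXA, rose by 0.64. Perp, a junction protein, fell by 0.34.

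The genes that fell most were Ramp3, Ckb, Hapln4, St6galnac4, Slc25a47, Efhd1, Rtp3, Rspo4, Slc8b1, Mme, Nr1i2 and Abhd15, by 1.92 to 2.60. Ramp3, a co-receptor of calcitonin-family receptors, read 6.04, 5.91 and 6.17 with FXRα2 and 3.57, 3.33 and 3.43 with FXRα4. The FXRα4 arrays overlapped those of GFP, at 3.47, 3.69 and 3.51, and the difference from FXRα2 was −2.60 ± 0.12 (adjusted p = 2.12e-12), a 6.05-fold fall. Ckb, the brain-type creatine kinase, read 10.53, 10.23 and 10.86 with FXRα2, 8.04, 7.58 and 8.44 with FXRα4, and 4.91, 5.70 and 5.57 with GFP. It thus stood well above GFP with both isoforms, and 5.73-fold lower with FXRα4 than with FXRα2 (−2.52 ± 0.20, adjusted p = 4.73e-09). Mme, the peptidase neprilysin, had the same placing, at 8.28 to 8.35 with FXRα2, 6.33 to 6.36 with FXRα4 and 4.31 to 4.51 with GFP (−1.97 ± 0.11, adjusted p = 2.67e-11). Efhd1, a calcium-binding protein of mitochondria, was placed alike and fell by 2.03. Slc25a47, a mitochondrial carrier of liver, read 8.61, 8.48 and 8.50 with FXRα2 and 6.81, 6.29 and 6.32 with FXRα4, which overlapped the 6.48 to 6.65 of GFP. Hapln4, a hyaluronan link protein, fell by 2.13 and St6galnac4, a sialyltransferase, by 2.07. Rspo4, an enhancer of Wnt signals, fell by 2.02, and its FXRα4 arrays, at 4.66, 4.32 and 4.74, lay near the 4.13 to 4.37 of GFP.

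Slc8b1, the sodium-calcium exchanger of mitochondria, read 8.79, 8.80 and 9.04 with FXRα2 and 6.91, 6.91 and 6.79 with FXRα4. The GFP arrays, at 8.03, 7.95 and 8.01, lay between the groups, and the fall was 2.00 ± 0.08 on the log2 scale (adjusted p = 9.05e-13). Nr1i2, the xenobiotic receptor PXR, was placed the same way: 7.85, 7.62 and 7.76 with FXRα2, 5.77, 5.76 and 5.86 with FXRα4 and 6.29, 6.08 and 6.12 with GFP (−1.95 ± 0.11, adjusted p = 3.62e-11). Rtp3 fell by 2.03, and a dimmer probe set of it by 1.20. Abhd15 fell by 1.92, but its other probe set, with a mean log2 value of 4.04, gave −0.31 and did not pass (adjusted p = 0.131). Differences from GFP share the FXRα2 and FXRα4 arrays with the comparison of the isoforms and are given only as placings; against GFP 34.3% of genes passed with FXRα2 and 33.8% with FXRα4.

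**Figure D3:**
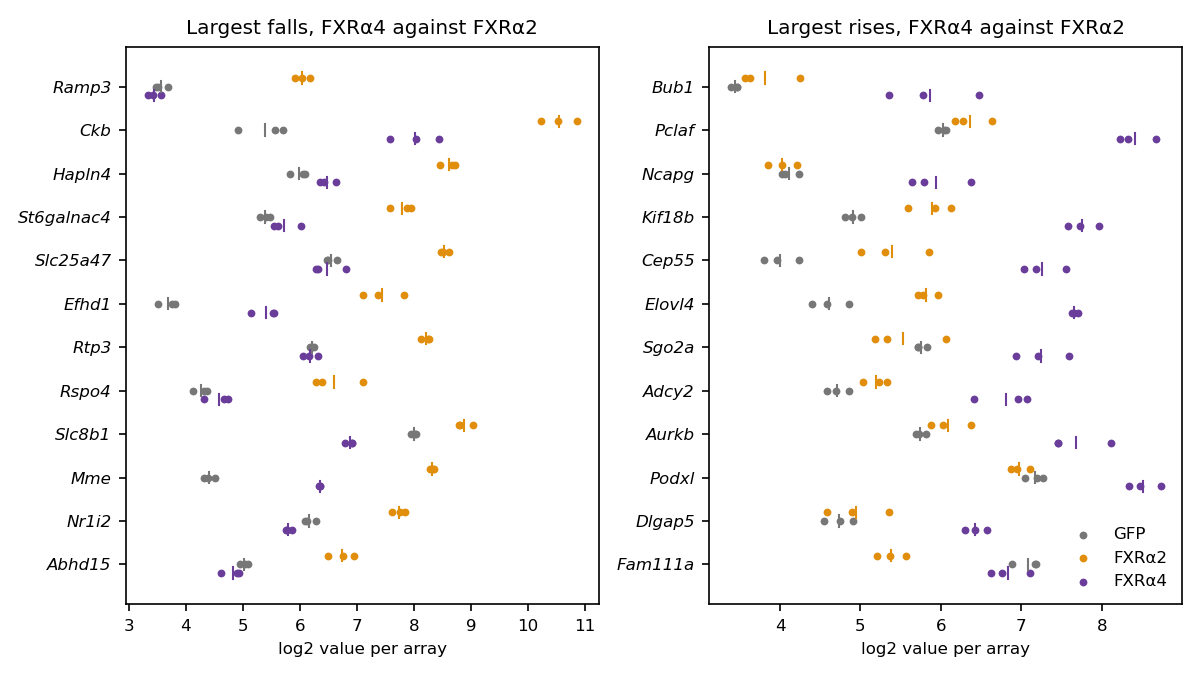
Log2 value in each of the 9 arrays of GFP (grey), FXRα2 (orange) and FXRα4 (purple) for the 12 genes that fell most (left) and the 12 that rose most (right). Points are arrays and vertical bars are group means. The orange and purple points of each gene are separate, and the grey GFP points of Slc8b1 and Nr1i2 lie between them.

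Of 28 measured FXR target genes 14 fell, 1 rose and 13 did not pass from FXRα2 to FXRα4, and their median difference was −0.24. The count of 1 became 2 without FXRα2 replicate 3 or FXRα4 replicate 2, with median centring and with a replicate block, and 3 with quantile normalization or centring on the 75th percentile. The summed linear level of the list was 28330 to 28934 over the FXRα2 arrays, 25572 to 26526 over the FXRα4 arrays and 25318 to 26148 over the GFP arrays. Abcb11, the bile salt export pump, read 8.46, 8.41 and 8.73 with FXRα2, 7.08, 7.03 and 7.03 with FXRα4 and 5.27, 5.04 and 5.21 with GFP. It was above GFP with both isoforms, and 2.81-fold lower with FXRα4 (−1.49 ± 0.13, adjusted p = 1.1e-08). Nr0b2, the corepressor SHP, read 4.94, 5.34 and 4.88 with FXRα2, 4.45, 4.20 and 4.16 with FXRα4 and 4.75, 4.60 and 4.61 with GFP. It fell by 0.79 ± 0.13 (adjusted p = 5.92e-05), and the GFP arrays lay between the isoforms. Pdk4, a kinase that blocks pyruvate dehydrogenase, read 8.26, 8.35 and 8.60 with FXRα2 and 7.19, 7.30 and 7.69 with FXRα4, a fall of 1.01 ± 0.12 (adjusted p = 7.75e-07). Osgin1 read 9.95, 9.86 and 10.04 with FXRα2 and 9.17, 9.26 and 9.12 with FXRα4, below the 10.83 to 10.87 of GFP, and fell by 0.77. Ppara, the fatty acid receptor, fell by 0.76, Scarb1, the HDL receptor, by 0.69, and Abcb4, the phospholipid export pump, by 0.52. The member that rose was Vldlr, the VLDL receptor (0.48 ± 0.07, adjusted p = 9.62e-06).

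The promoter window of Abcb11 (chr2:69342587-69342866, minus strand, from 250 bases before to 30 after the RefSeq start) is shown because this target had the largest fall among them and holds an inverted repeat. Capitals mark a match, with up to 1 mismatch, to an inverted repeat of the half-site AGGTCA with a spacer of 1 base.
Abcb11: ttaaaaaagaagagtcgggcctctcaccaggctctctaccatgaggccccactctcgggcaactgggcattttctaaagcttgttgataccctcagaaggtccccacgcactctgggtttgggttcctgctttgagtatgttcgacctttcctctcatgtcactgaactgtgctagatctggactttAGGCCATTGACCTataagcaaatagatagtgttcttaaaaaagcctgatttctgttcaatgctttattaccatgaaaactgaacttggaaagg
The repeat began at −63. Such a repeat was in 15 of 18155 windows (0.0826%). It was in 1 of the 136 windows of genes that fell by at least 2-fold and in 1 of the 31 windows of FXR targets. In both sets that window is the 1 of Abcb11, which was picked for holding the repeat, so these counts are no separate evidence. The single half-site AGGTCA, which also forms part of the full repeat, was in 14.3% of all windows. For changes of at least 2-fold it was in 20.6% of windows of genes that fell and in 5.97% of those that rose. For changes of any size the shares were 16.1% and 10.5%, closer to that of all windows.

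In bile acid synthesis and conjugation 7 of 18 members fell, 1 rose and 10 did not pass, with a median of −0.11. Cyp8b1, the sterol hydroxylase that sets the share of cholic acid, read 7.38, 7.21 and 7.35 with FXRα2 and 5.79, 5.56 and 5.81 with FXRα4. The FXRα4 arrays overlapped the 5.59 to 5.71 of GFP, and the fall was 1.59 ± 0.11 (adjusted p = 5.39e-10). Cyp7a1, the rate-limiting enzyme of the pathway, was dim in every group, at 3.13, 3.22 and 3.17 with FXRα2, 3.28, 2.99 and 3.09 with FXRα4 and 3.13 to 3.28 with GFP. Its difference of −0.05 did not pass (adjusted p = 0.737) and had a 95% interval of −0.22 to 0.11; without FXRα4 replicate 2 it was 0.013. Hsd17b4 and Amacr, enzymes of peroxisomal side-chain shortening, fell by 0.66 and 0.62, and Acnat1, an acyltransferase, by 0.80. Cyp27a1, which starts the alternative pathway, fell by 0.27 (adjusted p = 0.00124), and Cyp39a1 rose by 0.35 (adjusted p = 0.00108).

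Of 21 hepatobiliary transporters 7 fell and 3 rose, with a median of −0.04. Abcc6 read 6.88, 6.80 and 6.77 with FXRα2 and 5.51, 5.47 and 5.32 with FXRα4 (−1.38 ± 0.10, adjusted p = 1.94e-09). Slc10a1, which takes up bile salts from blood, read 7.15, 6.68 and 6.92 with FXRα2 and 6.12, 6.22 and 6.42 with FXRα4 (−0.66 ± 0.12, adjusted p = 0.000243). The related drug pumps moved oppositely: Abcb1a fell by 0.66, from 9.92 to 10.08 down to 9.20 to 9.43, and Abcb1b rose by 0.34.

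Of 32 genes of fatty acid oxidation and ketone bodies, which burn fat, 18 fell, 2 rose and 12 did not pass, with a median of −0.23. Cpt1a, the gate of mitochondrial fatty acid entry, read 9.43, 9.46 and 9.43 with FXRα2 and 8.59, 8.61 and 8.59 with FXRα4, below the 9.17 to 9.22 of GFP. It fell by 0.85 ± 0.05 (adjusted p = 4.93e-11). Bdh1, a ketone body dehydrogenase, read 6.86, 6.96 and 6.64 with FXRα2 and 5.87, 5.58 and 5.78 with FXRα4 (−1.07 ± 0.11, adjusted p = 2.54e-07). The β-oxidation enzymes Acaa2, Decr2 and Eci1 fell by 0.44, 0.50 and 0.44. Of 26 genes of fatty acid and triglyceride synthesis, which make fat, 15 fell and 1 rose (2 without FXRα2 replicate 3), with a median of −0.18. Fasn, the fatty acid synthase, read 10.21, 10.20 and 10.32 with FXRα2 and 9.86, 9.74 and 9.76 with FXRα4 (−0.45 ± 0.05, adjusted p = 4.03e-07). Acacb, the carboxylase that makes the inhibitor of Cpt1a, fell by 0.81, Elovl5 by 0.60, Gpam by 0.40 and Dgat2 by 0.28.

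Of 25 lipolysis and lipid droplet genes 10 fell and 3 rose, with a median of −0.18. The 3 that rose became 1 without FXRα2 replicate 2, 0 without FXRα4 replicate 3, and 5 with a replicate block or under each of the other scalings (quantile, median and 75th percentile). Cidec, a lipid droplet protein, read 9.68, 9.71 and 9.94 with FXRα2, 9.38, 9.27 and 9.40 with FXRα4 and 5.95, 5.98 and 6.20 with GFP. It was far above GFP with both isoforms and differed between them by −0.42 ± 0.10 (adjusted p = 0.00265), a 1.34-fold fall. Its relative Cidea read 5.97, 6.14 and 6.14 with FXRα2 and 5.03, 5.12 and 5.03 with FXRα4, a fall of 1.02 ± 0.10 (adjusted p = 9.12e-08). Cideb fell by 0.33, Plin3, a droplet coat protein, by 0.33, and Abhd5, the co-activator of triglyceride lipase, by 0.28. Cholesterol synthesis and uptake moved less: 7 of 22 members fell and 1 rose, with a median of −0.03. The 1 became 2 without FXRα4 replicate 1 and 0 without FXRα4 replicate 3. Of the 22, 21 were above the array median in all 6 arrays. The 36.4% that passed compare with 23.7% of all genes, and with 4070 of the 9410 genes above the median level when tested alone. Sqle, the squalene epoxidase, fell by 0.48 ± 0.05 (adjusted p = 1.93e-07), Dhcr7 by 0.43 and Hmgcs1 by 0.29.

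Of 25 apolipoprotein and lipoprotein genes 11 fell and 2 rose (4 without FXRα4 replicate 2 or with a replicate block, 1 without FXRα4 replicate 3), with a median of −0.11. Angptl8, a secreted inhibitor of lipoprotein lipase, read 9.08, 9.03 and 9.29 with FXRα2, 7.95, 7.78 and 7.88 with FXRα4 and 8.47 to 8.59 with GFP. The GFP arrays lay between the isoforms, and the fall was 1.26 ± 0.09 (adjusted p = 1.61e-09). Apom, the sphingolipid carrier of HDL, fell by 0.63, Apon by 0.57 and Lcat, which esterifies HDL cholesterol, by 0.48.

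Of 37 amino acid catabolism and urea cycle genes 20 fell and 1 rose (2 with a replicate block), with a median of −0.22. Hgd, an enzyme of tyrosine breakdown, read 8.53, 8.53 and 8.48 with FXRα2, 6.70, 6.38 and 6.79 with FXRα4 and 5.24 to 5.59 with GFP. It fell by 1.89 ± 0.13 (adjusted p = 3.36e-10), and its FXRα4 arrays stayed above those of GFP. Uroc1, of histidine breakdown, read 6.72, 6.82 and 6.86 with FXRα2 and 5.34, 4.90 and 4.99 with FXRα4 (−1.72 ± 0.14, adjusted p = 3.59e-09). Nags, which makes the activator of the urea cycle, fell by 0.82, Gpt, an alanine transaminase, by 0.89, and Cbs, of homocysteine removal, by 0.73. Bckdhb, a subunit of the branched-chain keto acid dehydrogenase, was the member that rose (0.51 ± 0.05, adjusted p = 1.21e-07). In glucose metabolism 8 of 23 members fell and 2 rose, with a median of −0.21. Slc37a4, the glucose-6-phosphate carrier, read 7.54, 7.39 and 7.52 with FXRα2 and 6.75, 6.54 and 6.70 with FXRα4 (−0.82 ± 0.11, adjusted p = 6.76e-06). Fbp1, of gluconeogenesis, fell by 0.49, Pdk1 by 0.78 and Pfkl, of glycolysis, by 0.40. Hk1, the hexokinase of most non-hepatic tissues, read 6.41, 6.30 and 6.67 with FXRα2 and 6.88, 7.09 and 7.48 with FXRα4 and rose by 0.69 ± 0.14 (adjusted p = 0.000667).

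**Figure D4:**
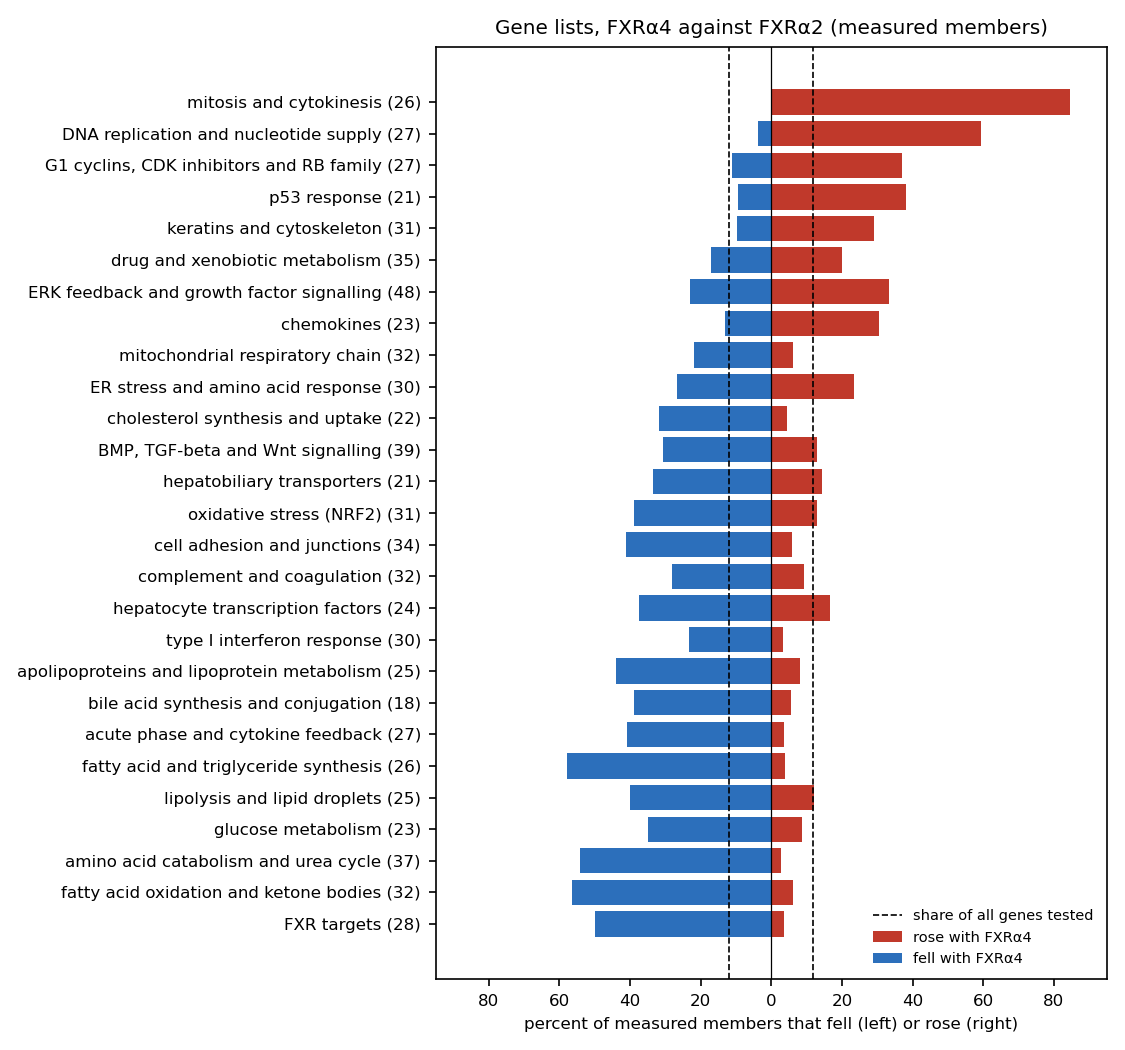
Percent of the measured members of each gene list (number in brackets) that fell (blue, left) or rose (red, right) with FXRα4 against FXRα2. Dashed lines mark the shares of all genes tested, 12% and 11.7%, dim genes included. With only the 9410 genes above the median level tested, 2115 fell and 1955 rose, larger shares than the lines mark. The lines are therefore a low reference for lists of mostly bright genes. Of the lists drawn, mitosis and cytokinesis has the longest red bar (22 of 26 members), and fatty acid synthesis (15 of 26), fatty acid oxidation (18 of 32) and amino acid catabolism (20 of 37) have the longest blue bars.

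Among liver transcription factors 9 of 24 fell and 4 rose, with a median of −0.09. Those that fell were Nr1i2, Ppara, Hnf4a, Creb3l3, Foxa1, Gata4, Cebpa, Rxra and Foxa3. Those that rose were Foxa2 (0.49, adjusted p = 0.0006), Onecut2 (0.28), Pparg (0.38) and Nr1h4, the first of them a factor of the same family as Foxa1. The members that changed are named in full after their values were seen. Hnf4a, a central regulator of hepatocyte genes, read 10.62 ± 0.04 with FXRα2, 9.95 ± 0.07 with FXRα4 and 9.09 ± 0.08 with GFP (mean ± SD, n = 3; −0.68 ± 0.05, adjusted p = 3.13e-09). Creb3l3, a factor of fasting lipid metabolism, read 9.60, 9.55 and 9.63 with FXRα2 and 8.71, 8.62 and 8.75 with FXRα4 (−0.90 ± 0.07, adjusted p = 2.35e-09). Both stood above GFP with each isoform and were lower with FXRα4 than with FXRα2. Foxa1 was placed the same way and fell by 0.86, and Gata4 fell by 0.58, to below the GFP arrays.

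Of 35 drug metabolism genes 7 rose and 6 fell, with a median of 0.06, against 11.7% and 12% of all genes. Of the 35, 27 were above the array median in all 6 arrays. With only the 9410 genes above the median level tested, 1955 rose and 2115 fell, so the list's counts were near those of bright genes. The 7 became 11 with quantile normalization and 12 with centring on the 75th percentile, and the 6 became 2 without FXRα2 replicate 1, FXRα4 replicate 1 or FXRα4 replicate 3. Fmo5, a flavin monooxygenase, read 8.72, 8.72 and 8.75 with FXRα2 and 7.80, 7.85 and 8.14 with FXRα4 (−0.80 ± 0.10, adjusted p = 2.12e-06). The cytochromes Cyp3a13, Cyp2b10, Cyp2e1 and Cyp2c37 rose by 0.52, 0.35, 0.33 and 0.25. Cyp2f2, Cyp2c38 and Cyp2d10 fell by 0.40, 0.40 and 0.39. The cytochromes that changed are named in full after their values were seen. Of 31 NRF2-linked genes of oxidative stress 12 fell and 4 rose, with a median of −0.06; without FXRα2 replicate 1 or 3, or FXRα4 replicate 1 or 3, 2 rose. Gsta4, a glutathione transferase for lipid aldehydes, read 7.92, 7.90 and 7.92 with FXRα2, 6.40, 6.22 and 6.36 with FXRα4 and 7.15 to 7.32 with GFP (−1.59 ± 0.07, adjusted p = 2.12e-12). Its groups did not overlap, and GFP lay between them. Hmox1, the heme oxygenase, fell by 0.91 and Gclm, of glutathione synthesis, by 0.71, while Slc7a11, the cystine carrier, rose by 0.41. In the ER stress and amino acid response list 7 of 30 rose (4 without FXRα2 replicate 1) and 8 fell (5 without FXRα4 replicate 1), with a median of −0.02. Aldh1l2 rose by 0.70, and Hyou1 and Chac1 fell by 0.52 and 0.51. Respiratory chain genes moved little: 7 of 32 fell (4 without FXRα2 replicate 1 or with centring on the median or the 75th percentile) and 2 rose, with a median of −0.02. The 2 that rose became 0 without FXRα2 replicate 2 or 3, and 1 without any of the FXRα4 arrays or with median centring. The largest change named among them was that of Uqcrfs1, at −0.35.

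Of 27 acute phase and cytokine feedback genes 11 fell, 1 rose and 15 did not pass, with a median of −0.18; the 1 became 0 without any single array other than FXRα4 replicate 1 and with centring on the median or the 75th percentile. Orm2, an orosomucoid, read 11.38, 11.29 and 11.09 with FXRα2, 10.04, 10.20 and 10.12 with FXRα4 and at most 9.26 with GFP (−1.13 ± 0.07, adjusted p = 1.47e-10). Orm3 was placed alike, at 8.71 to 8.88, 7.42 to 7.83 and 5.38 to 5.77, and fell by 1.19; orosomucoid genes are near-identical copies, so their probe sets may share signal. The acute phase proteins Saa2 (0.03), Orm1 (−0.07), Hp (−0.06) and Hpx (−0.03) did not pass, and are named here after their values were seen. Crp, the C-reactive protein, fell by 0.92 and Il6ra, the IL-6 receptor, by 0.79. Stat3, which carries the IL-6 signal, fell by 0.28 (adjusted p = 0.000377). Of 32 complement and coagulation genes 9 fell and 3 rose (5 with a replicate block), with a median of −0.08. Of the 32, 30 were above the array median in all 6 arrays. The 37.5% that passed compare with 23.7% of all genes, and with 4070 of the 9410 genes above the median level when tested alone. Fga, the fibrinogen α chain, fell by 0.58 (0.72 with a further probe set), Serpinf2, the plasmin inhibitor, by 0.51, and F7 by 0.58, while C9 rose by 0.34.

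Of 23 chemokines 7 rose and 3 fell, with a median of 0.03, and 3 rose without FXRα4 replicate 2. Cxcl9, an attractant of T cells, read 6.40, 6.21 and 6.37 with FXRα2 and 7.01, 7.07 and 7.11 with FXRα4 (0.74 ± 0.11, adjusted p = 4.14e-05). Cxcl10, which acts on the same receptor, moved the other way, at 9.29, 9.17 and 9.07 with FXRα2 and 8.39, 8.78 and 8.51 with FXRα4 (−0.62 ± 0.10, adjusted p = 0.000103). The neutrophil attractants Cxcl2 and Cxcl1 also parted, with a rise of 0.47 and a fall of 0.34. In the type I interferon list 7 of 30 fell, 1 rose and 22 did not pass, with a median of −0.10. The 1 became 2 without FXRα4 replicate 2 or with a replicate block. The 26.7% of its members that passed lay near the 23.7% of all genes. Isg15 (−0.14), Mx1 (0.03), Ifit3 (0.13), Oas2 (0.10) and Rsad2 (−0.11) did not pass, and are named here after their values were seen. Isg20, an antiviral exonuclease, fell by 0.80, Ifih1, a sensor of double-stranded RNA, by 0.75, and Irf1 by 0.67 (−0.08 and not passed with its dimmer probe set). Ifit2 was the member that rose, by 0.45.

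Of 34 cell adhesion and junction genes 14 fell and 2 rose, with a median of −0.08. The 14 became 9 without FXRα2 replicate 1, FXRα4 replicate 2 or FXRα4 replicate 3, and the 2 became 1 without FXRα2 replicate 2 and 4 with centring on the 75th percentile. Gjb2, the gap junction protein connexin 26, read 11.10 ± 0.09 with FXRα2, 10.34 ± 0.03 with FXRα4 and 9.20 ± 0.08 with GFP (mean ± SD, n = 3; −0.75 ± 0.05, adjusted p = 5.29e-10). Its further probe set gave −0.28 and did not pass (adjusted p = 0.187). Itga1, an integrin, fell by 0.57, and Tjp1, of tight junctions, by 0.30, while Ncam1 rose by 0.78. In the keratin and cytoskeleton list 9 of 31 rose and 3 fell, with a median of 0.06. Krt19 read 7.45, 7.54 and 7.66 with FXRα2, 8.29, 8.29 and 8.75 with FXRα4 and 9.26 to 9.44 with GFP, and Nes, an intermediate filament of progenitors, was placed alike. They were below GFP with both isoforms and rose from FXRα2 to FXRα4 by 0.89 ± 0.09 (adjusted p = 1.41e-07) and 0.86 ± 0.11 (adjusted p = 3.39e-06).

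The growth factor list was divided. Of 48 ERK feedback and growth factor genes 16 rose and 11 fell, with a median of 0.04. Hbegf, a ligand of the EGF receptor, read 8.01 ± 0.06 with FXRα2 and 8.67 ± 0.06 with FXRα4 (mean ± SD, n = 3; 0.66 ± 0.06, adjusted p = 6.95e-08). Etv5, a transcription factor induced by ERK, rose by 0.81 (0.82 with a further probe set), and Dusp9, an ERK phosphatase, by 0.91. The FGF receptor Fgfr3 read 9.17, 9.03 and 9.20 with FXRα2 and 8.16, 8.17 and 8.26 with FXRα4 (−0.93 ± 0.07, adjusted p = 1.09e-09). The IGF-binding proteins Igfbp1 and Igfbp4 fell by 0.55 and 0.33. Of 39 BMP, TGF-β and Wnt genes 12 fell and 5 rose, with a median of −0.04. Among ligands Tgfb2 rose by 0.70, Bmp4 by 0.76 and Bmp6 by 0.24. Bmp7 fell by 0.93, Inhbe, an activin subunit, by 0.55, Bmp2 by 0.43, Tgfb1 by 0.23 and Bmp8b by 0.13. The ligands that changed are named in full after their values were seen. Lgr5, the R-spondin receptor, read 3.80, 3.67 and 3.77 with FXRα2 and 4.64, 4.99 and 4.81 with FXRα4 (1.07 ± 0.10, adjusted p = 4.71e-08). The BMP target Id3 read 7.79, 7.70 and 7.83 with FXRα2 and 6.84, 6.98 and 7.01 with FXRα4 (−0.83 ± 0.09, adjusted p = 3.9e-07).

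The labelled cell type was borne out by its markers. Of 11 measured hepatocyte markers 10 were above the array median in each of the 6 arrays, and Asgr1, an asialoglycoprotein receptor subunit, was near it, at 5.80 to 6.41, and below it in FXRα4 replicate 2. Of the 11, 1 rose (Cyp2e1) and 1 fell (Fgb, −0.29; 2 fell without FXRα2 replicate 3 and 4 in the fit with a replicate block), and their summed linear level was 34606 to 37229 with FXRα2 and 34310 to 36212 with FXRα4. Markers of other liver cells were mostly dim. Below the array median in all 6 arrays were 11 of 12 Kupffer cell markers, 10 of 12 of sinusoidal endothelium, 11 of 13 of stellate cells and fibroblasts, 12 of 12 of lymphocytes and neutrophils and 5 of 10 of cholangiocytes. Cd68 was the Kupffer marker that fell (0.37), while Adgre1 and Timd4 were at 3.69 or less in these arrays. Reln and Ecm1 of the stellate list rose by 0.42 and 0.34, and this count of 2 was 1 without FXRα2 replicate 1 or 2 and 0 without FXRα4 replicate 3. Of the endothelial list Stab1 and Lyve1 fell by 0.34 and 0.28; their number was 0 to 4 with 1 array left out, and 1 with centring on the 75th percentile. Summed linear levels with FXRα2 and FXRα4 were 685 to 731 and 519 to 635 for Kupffer, 353 to 422 and 342 to 367 for endothelial, 370 to 379 and 397 to 437 for stellate, 151 to 155 and 152 to 176 for lymphocyte and neutrophil, and 1886 to 2252 and 2003 to 2219 for cholangiocyte markers. Krt19 and Pkhd1 of the cholangiocyte list rose, and Cldn7 and Epcam fell, the last narrowly (−0.27, adjusted p = 0.0496), and 0 or 1 of them fell with any 1 array left out. Epcam read 9.80, 9.93 and 10.18 with FXRα2, 9.67, 9.63 and 9.79 with FXRα4 and 4.91 to 5.10 with GFP. In these bulk samples a change in the number of cells of a type and a change in RNA per cell cannot be told apart.

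The same N-terminal difference was measured in isoforms that carry the insert by comparing FXRα3 with FXRα1, which shares no array with the comparison above. Of 18820 genes 1291 differed (6.86%), 416 higher and 875 lower with FXRα3, and 2 and 17 of them by at least 2-fold. The number passing was 831 without FXRα3 replicate 1 and 780 without FXRα3 replicate 2. The share of these genes that were higher was 32.2%, and it depended on the scaling: 58.6% with centring on the median, 57.2% on the 75th percentile and 48.9% with quantile normalization. In both comparisons 750 genes passed, 16.8% of those of FXRα4 against FXRα2 and 58.1% of those of FXRα3 against FXRα1. Of these 437 were lower and 200 higher with the longer N-terminus in both, and 113 went opposite ways. Across all genes the differences had r = 0.31, a description of 18820 genes that are not independent.

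**Figure D5:**
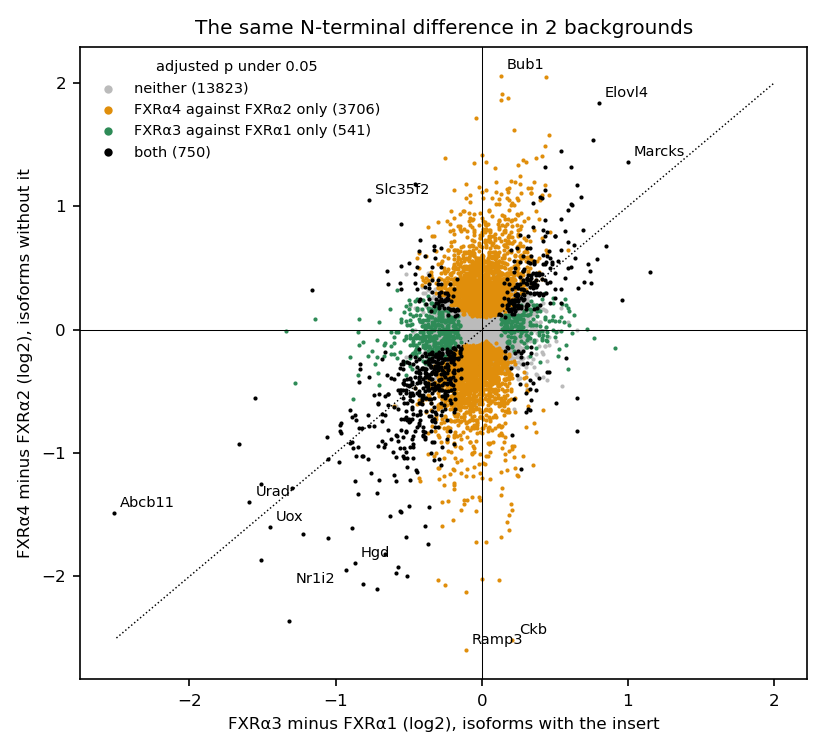
Difference of FXRα4 from FXRα2 (log2, vertical axis) against that of FXRα3 from FXRα1 (log2, horizontal axis) for 18820 genes, with the line of equal differences dotted. Black points (750) passed in both comparisons, orange points (3706) in that of FXRα4 with FXRα2 only, and green points (541) in that of FXRα3 with FXRα1 only. Bub1, Ramp3 and Ckb lie near 0 on the horizontal axis, and Abcb11 lies far to the left.

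The difference between both N-terminal differences was tested as an interaction. It passed for 2422 genes (12.9%), 1363 higher and 1059 lower without the insert, and 2013 of the 4456 genes that changed from FXRα2 to FXRα4 (45.2%) were among them. The interaction term contains the FXRα4 minus FXRα2 difference, so genes chosen for that difference pass it more readily, and this overlap is no separate evidence. The higher share was 56.3%, and 44.3% with centring on the median. Ckb and Ramp3 had the lowest terms and did not pass with the insert. Ckb read 5.86, 5.32 and 5.28 with FXRα1 and 5.78, 5.68 and 5.64 with FXRα3, and Ramp3 read 3.34, 3.56 and 3.66 with FXRα1 and 3.69, 3.23 and 3.31 with FXRα3. Their interaction terms were −2.73 ± 0.29 (adjusted p = 1.27e-06) and −2.49 ± 0.17 (adjusted p = 1.6e-08). Slc35f2, a solute carrier, turned direction: it rose from 6.37, 6.20 and 6.54 with FXRα2 to 7.35, 7.34 and 7.58 with FXRα4, and fell from 7.58, 7.37 and 7.64 with FXRα1 to 6.63, 6.70 and 6.95 with FXRα3. Its interaction term was 1.82 ± 0.17 (adjusted p = 2.17e-07). In the mitosis list 2 of 26 members rose and 1 fell from FXRα1 to FXRα3, against 2.21% and 4.65% of all genes. The list's median was 0.13, and 15 members had a higher interaction term and 0 a lower one, against 7.24% and 5.63% of all genes. The list stood out by the FXRα4 minus FXRα2 difference, which the term contains, so the 15 are no separate evidence either. Bub1 read 3.61, 3.38 and 3.45 with FXRα1 and 3.44, 3.46 and 3.94 with FXRα3, and Cdk1, which rose there too, read 7.30, 7.41 and 7.32 with FXRα1 and 7.94, 8.03 and 8.12 with FXRα3.

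Among FXR targets 8 of 28 fell and 0 rose from FXRα1 to FXRα3, with a median of −0.10. Their interaction term was higher for 4 and lower for 6. Of all genes 4.65% fell and 2.21% rose from FXRα1 to FXRα3, and 7.24% had a higher and 5.63% a lower interaction term. Abcb11 fell further with the insert than without it, from 8.27, 7.88 and 8.39 with FXRα1 to 5.53, 5.51 and 5.95 with FXRα3. That difference was −2.52 ± 0.13 (adjusted p = 2.96e-11), and the interaction term was 1.03 ± 0.18 (adjusted p = 0.000416). Osgin1 fell by 0.97 with the insert and by 0.77 without it, and the difference did not pass (adjusted p = 0.0937). Nr0b2 fell in both pairs, by 0.44 (adjusted p = 0.034) with the insert. Nr1i2 fell by 0.93 from FXRα1 to FXRα3, less than without the insert (interaction −1.03 ± 0.16, adjusted p = 0.000123). Of the amino acid list 11 of 37 fell and 2 rose from FXRα1 to FXRα3, and of the fatty acid oxidation list 6 of 32 fell and 1 rose. Those lists had 11 and 12 members with a lower interaction term and 3 and 1 with a higher one. The term contains the FXRα4 minus FXRα2 difference, so these interaction counts are no separate evidence. Most members of both lists were bright. With only the 9410 genes above the median level tested, 1035 fell and 498 rose from FXRα1 to FXRα3, and the interaction term was lower for 1071 and higher for 1367.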

How the data were processed

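The authors deposited 1 normalized value per probe set and array, and these deposited values are on a log2 scale, a base taken from their range (1.93 to 13.84) since no source states it. Per the submitters' processing notes, Affymetrix Expression Console 1.1 and PLIER were used, and the normalization is not given in the sources used here. Of 35556 probe sets 21218 had 1 gene symbol, 1881 several and 12457 none; 21185 matched a RefSeq entry and 0 symbols changed. Of 1386 genes with several sets the brightest over all 15 arrays was kept. limma 3.58.1 (R 4.3.3) fitted 5 group means with a mean-variance trend to all arrays, tests were two-sided, and p-values were adjusted over all 18820 genes. No filter on dim genes was applied.

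The arrays, lists and tests were chosen with earlier results of these data known. The 33 lists held 874 genes, 797 of them measured. Names in the text come from Nr1h4 and 6 known FXR-linked genes, the 12 largest changes each way with replicates that do not overlap (predicted genes passed over), up to 6 members per list with the smallest adjusted p, all members of lists of up to 12 genes, and 6 interaction terms each way. Same-numbered FXRα2 and FXRα4 arrays deviated together (r 0.13 to 0.43), and over all groups r was −0.21 to 0.43. The main fit used no pairing, and all SEs and adjusted p-values in the Results are unpaired. Only the alternatives with a replicate block treated same-numbered arrays as linked, from the data and not from the labels. Alternatives were other variance models, array weights, the compared groups alone, filters on dim genes, quantile normalization, centring on the median or the 75th percentile, all probe sets, 16 added to linear values, a 1.5-fold minimum, a replicate block and leaving out each array. Figures were drawn with matplotlib 3.10.9. Calculations were tested on simulated data.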

Additional observations from a re-analysis of the deposited data

Results flagged for a closer look

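The N-terminal difference of isoforms without the insert (FXRα4 minus FXRα2) differed from that of isoforms with it (FXRα3 minus FXRα1) for 2422 genes by limma's interaction test at an adjusted p under 0.05. Groups of 3 arrays were not tested for outlying samples. Because the interaction term contains the FXRα4 minus FXRα2 difference, large terms among genes that fell or rose most are no separate evidence. Among genes that fell most from FXRα2 to FXRα4, the interaction term was −2.73 for Ckb, −2.49 for Ramp3, −2.15 for Efhd1, −2.01 for Hapln4, −2.01 for Rspo4 and −1.82 for St6galnac4. Among those that rose, it was 1.92 for Bub1, 1.77 for Ncapg, 1.76 for Sgo2a, 1.73 for Cep55 and 1.70 for Kif18b. Slc35f2 had 1.82, with a rise without the insert and a fall with it. Of the FXR-linked genes, the term was 1.03 for Abcb11, −1.32 for Cyp8b1, −0.64 for Pdk4 and 0.33 for Nr1h4 (adjusted p = 0.0389).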

How the results depend on the processing

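With the replicate block 5196 genes differed between FXRα4 and FXRα2, all 4456 among them, and with 1 array left out 3610 to 4256. The 6 arrays alone with a replicate block, an alternative chosen after seeing the data, gave 5432. Requiring at least 1.5-fold left 829 genes (348 higher, 481 lower), and 148 (35 and 113) for FXRα3 against FXRα1 and 743 (412 and 331) for the interaction. For FXRα3 against FXRα1 array weights gave 2046 (704 and 1342) and the replicate block 2117 (706 and 1411). Its number of higher genes was 267 without the mean-variance trend, 785 with quantile normalization, 883 with median centring and 917 with centring on the 75th percentile. With 1 array left out it was 780 to 1926 in all, 237 to 455 higher and 504 to 1471 lower. The cause of these shifts was not tested. Cyp7a1, which did not pass, ranged from −0.13 to 0.013 with 1 array left out. A filter that kept only genes above the median level left no lymphocyte or neutrophil marker.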
